A study of Drosophila melanogaster with 12 samples.

Results

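The genes described here encode the precursors of neuropeptides and peptide hormones of *Drosophila melanogaster*. They were taken from a list of 40 precursor genes, and a gene counted as measured where the array has a probe set annotated to it alone by its RefSeq symbol. This held for 33 of the 40, each with 1 probe set, out of 11982 genes measured in all. *Dsk*, *Tk*, *AstA*, *Ilp3*, *Ilp6*, *Hug* and *Pburs* have no such probe set and were not analysed here. The choice of genes used no measured value, but it was made with earlier results of these arrays known.

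Neuropeptides are cut from larger precursors in the secretory pathway, often amidated at their end, packed into dense-core vesicles and released to act through receptors that are mostly coupled to G proteins. In the fly head they are made by small, named sets of neurons and neurosecretory cells, among them the insulin-producing cells of the brain and the clock neurons, while some peptide hormones come from glands, gut, fat body or tracheal cells. A precursor transcript in a whole head therefore often stands for a small number of cells. In such bulk samples, fewer cells of a type and less RNA per cell cannot be told apart.

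RNA of adult heads taken 60 h after eclosion was measured on Affymetrix Drosophila Genome 2.0 arrays in 4 groups with 3 arrays each. The rescue flies were homozygous for tbph Δ23 and carried elav-GS-GAL4 and UAS-TBPH, and ate 5 mM RU-486 from eclosion on, which switches on TBPH, the fly homologue of human TDP-43, in neurons only. The flies of tbph Δ23 and of tbph Δ142 carried independent null alleles of *tbph*, w1118 flies were the controls, and these 3 groups ate standard food without the drug. In the rescue the drug, both transgenes and the re-expression of TBPH vary together, so their parts cannot be told apart. The drug was given in a sucrose solution laid on the food, and whether the other groups received that solution is not stated. If they did not, the sucrose varies together with the drug as well. The sources used here give neither the number nor the sex of the heads. The comparisons ask how loss of *tbph* alters head transcripts and which of these alterations neuronal TBPH in the adult reverses.

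The deposited values, made by the authors with RMA, are log2 intensities, and a difference of 1 is a doubling. The gene *TBPH* itself averaged 6.42 in the rescue, 5.83 in tbph Δ23 heads, 4.31 in tbph Δ142 heads and 5.73 in w1118, so it fell in tbph Δ142 (-1.42 against w1118, limma adjusted p = 8.88e-07) and gave 0.10 in tbph Δ23 (adjusted p = 0.521). Where its probe sets lie on the transcript is not given, so these values do not check the deletion in tbph Δ23. Arrays of the rescue correlated with each other at 0.972 to 0.997, and rescue replicate 1 stood apart from the others, while arrays within the other groups correlated at 0.995 or more. Photoreceptor markers (4 genes, list mean 12.59 to 12.84 over all arrays) and neuron markers (7 genes, 7.80 to 8.10) were present throughout, as heads should show. The median standard error was 0.117 for a difference of 3 against 3 arrays in the peptide genes and 0.0928 over all genes, and the small number of arrays limits the precision.

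To see which peptide genes were readable, their levels were set beside 13 genes not expected in heads, such as chorion genes, whose group means lay between 2.87 and 4.88. In all 4 groups 23 peptide genes had means above this range. *Ilp7*, *Ilp8*, *amn*, *ETH*, *Burs* and *Ptth* lay within or under it in all groups, and *CCAP*, *Eh*, *Akh* and *CCHa1* in some. For a group inside this range a difference can understate the change, and a low value cannot be read as absence. A 14th gene of that list, *Cp19*, read 4.46 to 6.06 and was set aside after its values were seen.

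**Figure D1:**
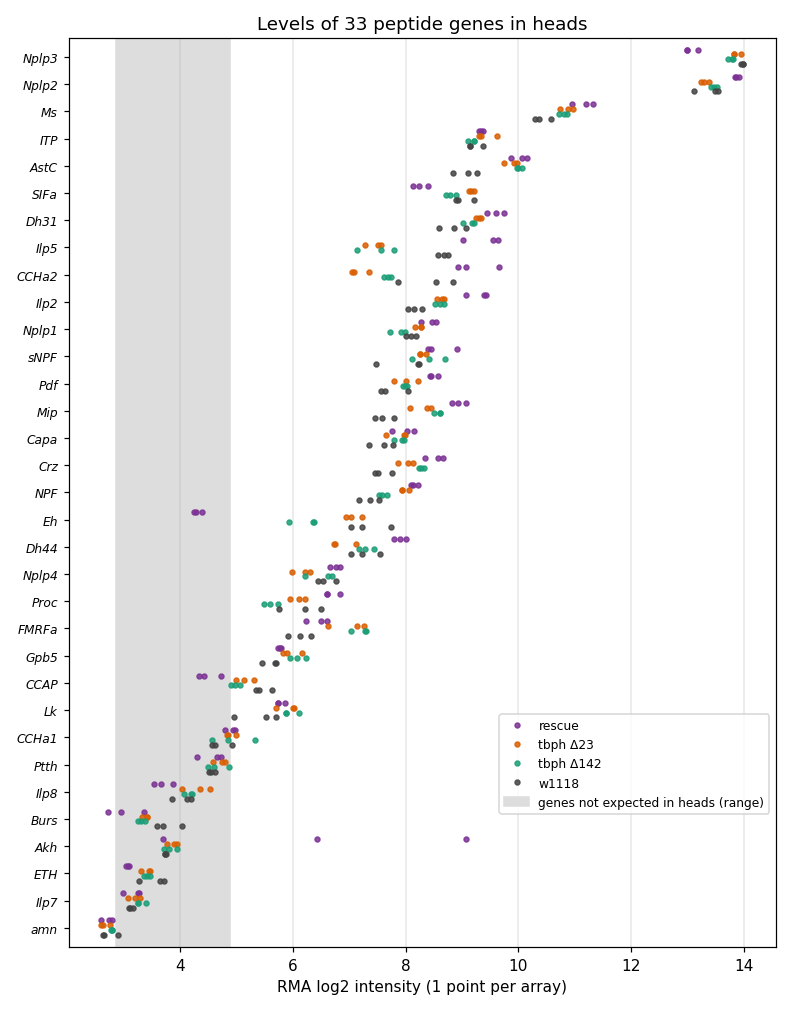
RMA log2 intensity (horizontal axis) of the 33 measured peptide genes (rows), with 1 point per array for the rescue, tbph Δ23, tbph Δ142 and w1118. The grey band, 2.87 to 4.88, is the range of the group means of 13 genes not expected in heads; *Eh* falls inside it only in the rescue (4.24 to 4.38), and *Akh* stands at 9.06, 3.70 and 6.42 on the 3 rescue arrays.

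In tbph Δ23 heads, 13 of the 33 peptide genes passed the test against w1118 (limma, Benjamini-Hochberg adjusted p under 0.05), 10 higher and 3 lower, where 21.3% of all genes passed. In tbph Δ142 heads 15 passed, 8 higher and 7 lower, where 25.0% of all genes passed. Over all genes the shares were 9.40% higher and 11.9% lower for tbph Δ23, and 10.0% higher and 15.0% lower for tbph Δ142. The medians of the arrays over all probe sets, 4.396 to 4.495, lay within the range of genes not expected in heads, while 23 peptide genes lay above it. The all-gene shares here and below thus include many genes read at a low level. Shares over genes of like level were not computed. With array medians centred, 8 peptide genes were higher and 4 lower in tbph Δ142. The median difference of the peptide genes was 0.15 in tbph Δ23 and 0.10 in tbph Δ142, beside -0.02 and -0.01 over all genes. Both comparisons use the same w1118 arrays. The 6 mutant arrays lay entirely outside the w1118 arrays for 13 peptide genes, 8 above and 5 below, where 26.1% of all genes did so (10.9% above and 15.2% below).

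**Figure D2:**
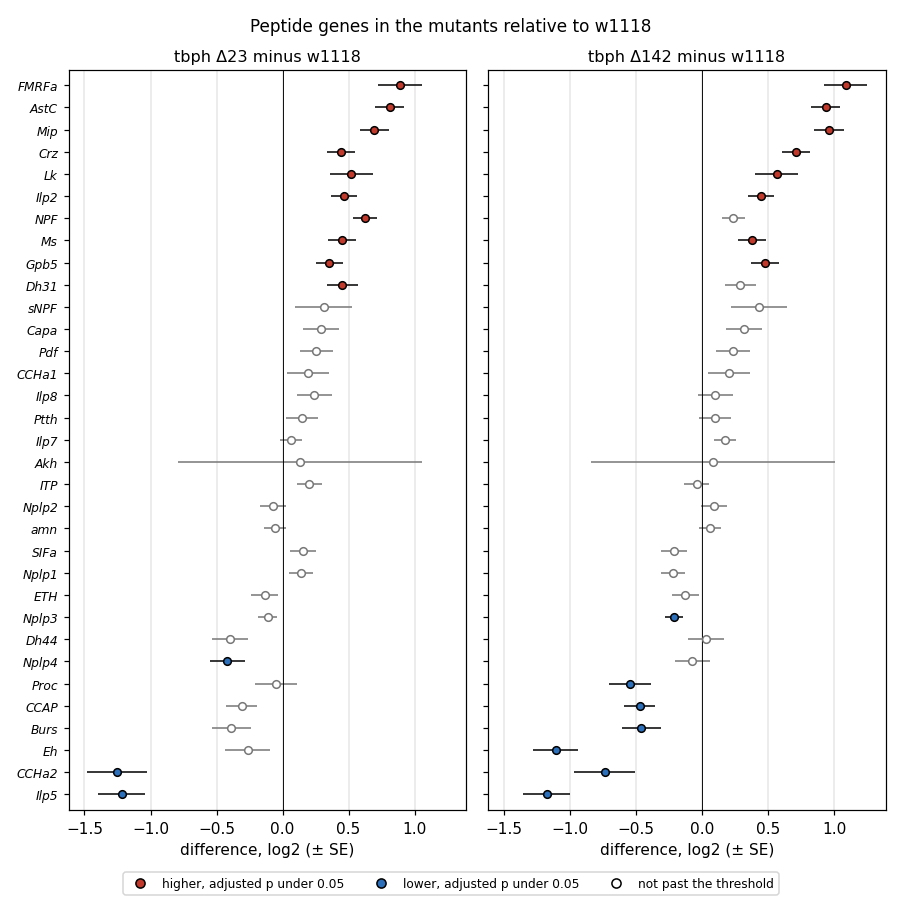
Difference in log2 intensity from w1118 (horizontal axis, bars ± standard error) of each peptide gene (rows) in tbph Δ23 and in tbph Δ142, with 3 arrays per group. *FMRFa* has the highest filled point in each panel (0.89 and 1.09), and *Ilp5*, *CCHa2* and, in tbph Δ142 alone, *Eh* the lowest (-1.25 to -0.74); open points did not pass the test.

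Among the metabolic hormones, *Ilp5* and *CCHa2* were lower in both mutants and higher in the rescue than in any other group, while *Ilp2* was higher in the mutants and higher still in the rescue. *Ilp5* encodes an insulin-like peptide of the insulin-producing cells. It read 9.02, 9.55 and 9.64 in the rescue, 7.27, 7.57 and 7.51 in tbph Δ23 heads, 7.78, 7.13 and 7.56 in tbph Δ142 heads, and 8.74, 8.58 and 8.68 in w1118. All 6 mutant arrays were under the w1118 arrays and all 3 rescue arrays above them. It fell by 1.22 in tbph Δ23 (SE 0.18, limma adjusted p = 0.000544) and by 1.18 in tbph Δ142 (adjusted p = 0.000507), and the rescue was 1.95 above tbph Δ23 (adjusted p = 8.20e-06), 1.91 above tbph Δ142 (adjusted p = 1.41e-05) and 0.74 above w1118 (adjusted p = 0.00692).

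*Ilp2*, the other insulin-like peptide of these cells that was measured, read 9.07, 9.42 and 9.38 in the rescue, 8.64, 8.67 and 8.55 in tbph Δ23 heads, 8.68, 8.52 and 8.61 in tbph Δ142 heads, and 8.29, 8.04 and 8.15 in w1118. The mutant arrays lay between the rescue and the w1118 arrays without overlap on either side. It was 0.46 higher in tbph Δ23 (SE 0.10, limma adjusted p = 0.00546) and 0.45 higher in tbph Δ142 (adjusted p = 0.00577) than in w1118. The rescue was 0.67 above tbph Δ23 (adjusted p = 0.000302), 0.69 above tbph Δ142 (adjusted p = 0.000327) and 1.13 above w1118 (adjusted p = 3.18e-06). In the mutants the 2 insulin genes thus differed from w1118 in opposite directions.

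*CCHa2* encodes a peptide of gut and fat body that, in larvae, signals nutrition to the insulin-producing cells. It read 9.07, 8.92 and 9.65 in the rescue, 7.09, 7.35 and 7.04 in tbph Δ23 heads, 7.73, 7.69 and 7.61 in tbph Δ142 heads, and 8.54, 7.87 and 8.83 in w1118. The mutant arrays all lay under w1118, whose replicate 2 came closest to them, and the rescue arrays lay above every other array. It fell by 1.25 in tbph Δ23 (SE 0.23, limma adjusted p = 0.00223), a 2.38-fold lower level than in w1118, and by 0.74 in tbph Δ142 (adjusted p = 0.0349). The rescue was 2.05 above tbph Δ23 (adjusted p = 3.71e-05), 1.54 above tbph Δ142 (adjusted p = 0.000433) and 0.80 above w1118 (adjusted p = 0.0173). The call in tbph Δ142 was lost with array medians centred and on leaving out any of its own arrays or w1118 replicate 1 or 3 (-1.01 to -0.53 over 20 alternatives, which changed the scaling, the model or the genes kept or left out single arrays, as do the ranges given for other calls). The call of the rescue against w1118 was lost without rescue replicate 3 or w1118 replicate 2 and in a fit of the compared groups only (0.53 to 1.01).

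*Akh*, the adipokinetic hormone of the corpora cardiaca, which mobilises stored fat and sugar, was singled out after its values were seen. It read 9.06, 3.70 and 6.42 in the rescue, against 3.77 to 3.95 in tbph Δ23 heads, 3.71 to 3.95 in tbph Δ142 heads and 3.73 to 3.74 in w1118. Rescue replicate 2 was at the level of w1118 and the other rescue arrays were far above it. The difference of 2.66 from w1118 passed the test narrowly (SE 0.92, limma adjusted p = 0.0429) and was lost in 12 of 20 alternatives, among them leaving out rescue replicate 1, rescue replicate 3 or any array of another group (1.32 to 4.005 over the alternatives). The differences from tbph Δ23 (2.52, adjusted p = 0.0606) and tbph Δ142 (2.57, adjusted p = 0.0593) did not pass. The mean of the 4 muscle markers was 9.23, 7.54 and 7.91 on these rescue arrays, highest on replicate 1 and lowest on replicate 2 as *Akh* was, beside 8.51 to 8.59 in tbph Δ23 heads, 8.50 to 8.52 in tbph Δ142 heads and 7.85 to 8.10 in w1118. The fat body marker mean was 12.80, 13.00 and 12.87 on the same rescue arrays. The part of either list in the *Akh* values was not tested. *Ilp7*, made by neurons of the nerve cord, averaged 3.17 in the rescue, 3.18 in tbph Δ23 heads, 3.30 in tbph Δ142 heads and 3.12 in w1118 and passed no test.

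Fat body markers, among them the yolk protein genes that female flies express, moved in the rescue as well. The mean of the 7 markers was 12.80 to 13.00 over the rescue arrays, 8.67 to 9.70 in tbph Δ23 heads, 9.91 to 11.12 in tbph Δ142 heads and 9.71 to 11.01 in w1118. All 7 were higher in the rescue relative to tbph Δ23 heads, 6 were higher than in tbph Δ142 heads and 6 higher than in w1118, while 3 were lower in tbph Δ23 than in w1118 and 1 was higher in tbph Δ142. Of the 5 hemocyte markers (6.83 to 7.02 in the rescue, 5.43 to 5.61 in tbph Δ23 heads, 5.84 to 5.97 in tbph Δ142 heads and 5.28 to 5.77 in w1118), 4 were higher in the rescue in each of its comparisons. Against w1118, 1 hemocyte marker was higher and 1 lower in tbph Δ23, and 1 was higher in tbph Δ142. The part of these markers in the values of *Ilp5*, *Ilp2* and *CCHa2* was not tested.

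Of the hormones of moulting and cuticle maturation, *Eh*, *CCAP*, *ETH* and *Burs* were lower in the rescue than in w1118. *Eh*, the eclosion hormone that triggers ecdysis behaviour, read 4.29, 4.24 and 4.38 in the rescue, 7.03, 6.93 and 7.22 in tbph Δ23 heads, 6.38, 5.93 and 6.35 in tbph Δ142 heads, and 7.22, 7.74 and 7.02 in w1118. The rescue arrays stood far under all others, tbph Δ142 lay under w1118, and tbph Δ23 overlapped it. Relative to w1118, *Eh* fell by 1.11 in tbph Δ142 (SE 0.17, limma adjusted p = 0.000543) and gave -0.26 in tbph Δ23 (adjusted p = 0.327). In the rescue it fell by 2.76 relative to tbph Δ23 (adjusted p = 3.90e-07), by 1.92 relative to tbph Δ142 (adjusted p = 9.40e-06) and by 3.02 relative to w1118 (adjusted p = 8.17e-08), an 8.13-fold lower level. This was the largest difference of any peptide gene in these comparisons.

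*CCAP*, crustacean cardioactive peptide, acts with *Eh* in ecdysis and speeds the heart. It read 4.42, 4.34 and 4.73 in the rescue, 4.99, 5.14 and 5.31 in tbph Δ23 heads, 4.90, 4.98 and 5.07 in tbph Δ142 heads, and 5.34, 5.63 and 5.39 in w1118. The rescue arrays were the lowest, and every mutant array lay under every w1118 array. It fell by 0.47 in tbph Δ142 (SE 0.12, limma adjusted p = 0.0116) and gave -0.31 in tbph Δ23 (adjusted p = 0.0863). The rescue differed from tbph Δ23 by -0.65 (adjusted p = 0.00135), from tbph Δ142 by -0.49 (adjusted p = 0.00921) and from w1118 by -0.96 (adjusted p = 5.19e-05).

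The remaining genes with roles in moulting read within the range of genes not expected in heads. *Ilp8*, the relaxin-like signal that delays metamorphosis when larval tissue is damaged, read 3.53, 3.88 and 3.65 in the rescue, 4.02, 4.35 and 4.52 in tbph Δ23 heads, 4.07, 4.21 and 4.19 in tbph Δ142 heads, and 4.19, 4.12 and 3.86 in w1118. The rescue arrays were under all mutant arrays and overlapped w1118. It differed by -0.61 from tbph Δ23 (SE 0.13, limma adjusted p = 0.00429) and by -0.47 from tbph Δ142 (adjusted p = 0.0202), a call that was lost without rescue replicate 1 or 3 or tbph Δ142 replicate 2 or 3 (-0.57 to -0.40). *ETH*, the ecdysis-triggering hormone of tracheal Inka cells, averaged 3.07 in the rescue, 3.40 in tbph Δ23 heads, 3.41 in tbph Δ142 heads and 3.54 in w1118, and was lower in the rescue in all its comparisons. Its calls against the mutants were lost on leaving out any rescue array, tbph Δ23 replicate 1 or 2, or tbph Δ142 replicate 1 or 3 (-0.38 to -0.30). *Burs*, a bursicon subunit, which hardens and darkens new cuticle, averaged 3.01 in the rescue, 3.38 in tbph Δ23 heads, 3.31 in tbph Δ142 heads and 3.77 in w1118. It was lower than w1118 in the rescue (-0.76, adjusted p = 0.00158) and, narrowly, in tbph Δ142 (-0.46, adjusted p = 0.0404), a call lost in 10 of 19 alternatives, among them leaving out any array of either mutant (-0.55 to -0.33). *Ptth*, which drives ecdysone release in larvae, averaged 4.56 in the rescue, 4.71 in tbph Δ23 heads, 4.66 in tbph Δ142 heads and 4.56 in w1118, and no test passed.

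The markers of trachea and epidermis moved with this group. The mean of the 3 markers was 5.84 to 6.45 in the rescue, 8.45 to 8.67 in tbph Δ23 heads, 7.92 to 8.24 in tbph Δ142 heads and 8.96 to 9.32 in w1118. All 3 were lower in the rescue and in tbph Δ142 than in w1118, 1 was lower in tbph Δ23, and 2 were lower in the rescue than in each mutant. Their part in the values of *Eh*, *CCAP*, *ETH* and *Burs* was not tested.

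**Figure D3:**
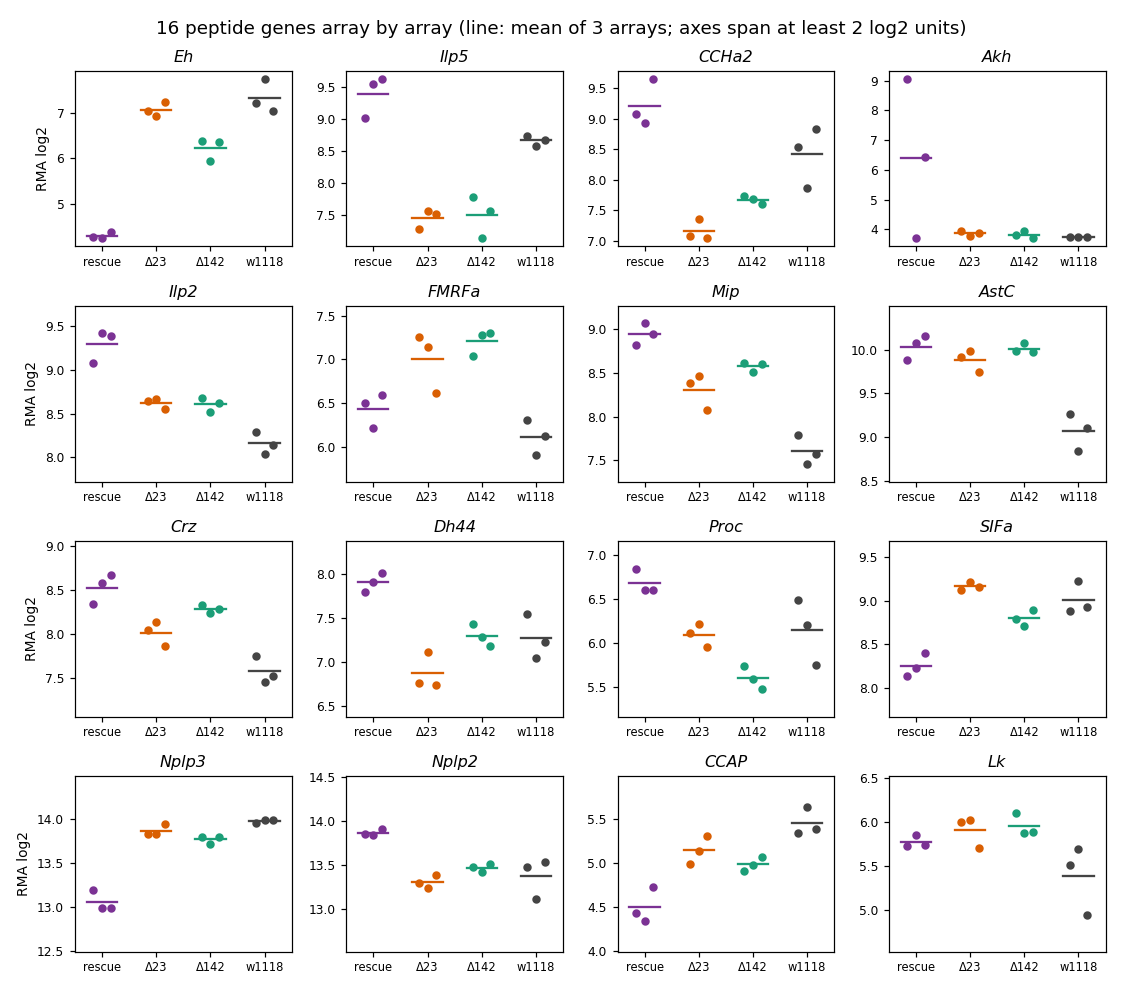
RMA log2 intensity (vertical axis) of 16 peptide genes on each array of the rescue, tbph Δ23, tbph Δ142 and w1118, with a line at the mean of 3 arrays. *Ilp5* and *CCHa2* are lowest in the mutants (means 7.16 to 7.68), *Eh* is lowest in the rescue (4.30), and *AstC* and *Mip* are lowest in w1118 (9.07 and 7.61).

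Among the neuropeptide genes, *FMRFa*, *AstC*, *Mip* and *Crz* were higher in both mutants than in w1118. *AstC* encodes allatostatin C, an inhibitory peptide. It read 9.88, 10.07 and 10.15 in the rescue, 9.92, 9.98 and 9.74 in tbph Δ23 heads, 9.98, 10.07 and 9.97 in tbph Δ142 heads, and 9.26, 8.84 and 9.11 in w1118. All arrays of the rescue and of both mutants lay above w1118, and the rescue overlapped the mutants. *AstC* was higher than in w1118 by 0.81 in tbph Δ23 (SE 0.11, limma adjusted p = 0.000328), by 0.94 in tbph Δ142 (adjusted p = 7.84e-05) and by 0.96 in the rescue (adjusted p = 3.04e-05). The rescue was 0.15 above tbph Δ23 (adjusted p = 0.344) and 0.02 above tbph Δ142 (adjusted p = 0.902).

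*Mip*, the precursor of myoinhibiting peptides, which also act on the sex peptide receptor, read 8.82, 9.06 and 8.94 in the rescue, 8.38, 8.46 and 8.07 in tbph Δ23 heads, 8.61, 8.50 and 8.60 in tbph Δ142 heads, and 7.79, 7.46 and 7.58 in w1118. The groups did not overlap between the rescue, the mutants and w1118. It was higher than in w1118 by 0.69 in tbph Δ23 (SE 0.11, limma adjusted p = 0.00107) and by 0.96 in tbph Δ142 (adjusted p = 7.67e-05). The rescue was 0.64 above tbph Δ23 (adjusted p = 0.00119), 0.37 above tbph Δ142 (adjusted p = 0.0317) and 1.33 above w1118 (adjusted p = 2.69e-06), a 2.51-fold higher level. The call against tbph Δ142 was lost with array medians centred, without any of its arrays and without rescue replicate 2 or 3 (0.30 to 0.42).

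*Crz*, the precursor of corazonin, a stress-related peptide of the gonadotropin-releasing hormone family, read 8.34, 8.58 and 8.66 in the rescue, 8.05, 8.14 and 7.86 in tbph Δ23 heads, 8.33, 8.24 and 8.28 in tbph Δ142 heads, and 7.75, 7.45 and 7.52 in w1118. Every mutant array was above every w1118 array and under every rescue array. Relative to w1118 it was 0.44 higher in tbph Δ23 (SE 0.11, limma adjusted p = 0.0109), a call that was lost without tbph Δ23 replicate 2 (adjusted p = 0.0512), and 0.71 higher in tbph Δ142 (adjusted p = 0.00043). The rescue was 0.51 above tbph Δ23 (adjusted p = 0.00306), 0.24 above tbph Δ142 (adjusted p = 0.115) and 0.96 above w1118 (adjusted p = 2.27e-05).

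*FMRFa* encodes the FMRFamide peptides, which modulate muscle and synapses. It read 6.50, 6.22 and 6.59 in the rescue, 7.25, 7.14 and 6.62 in tbph Δ23 heads, 7.04, 7.28 and 7.30 in tbph Δ142 heads, and 6.31, 5.92 and 6.13 in w1118. The mutant arrays lay above all others, with tbph Δ23 replicate 3 close to the rescue, and the rescue overlapped w1118. It was 0.89 higher in tbph Δ23 (SE 0.16, limma adjusted p = 0.00247) and 1.09 higher in tbph Δ142 (adjusted p = 0.000494), the largest rise of a peptide gene in a mutant. The rescue was under tbph Δ142 (-0.77, adjusted p = 0.00469) and under tbph Δ23 (-0.56, adjusted p = 0.0229), where the call was lost in a fit of the compared groups only and without rescue replicate 2 or tbph Δ23 replicate 1 or 2 (-0.76 to -0.44). Its difference of 0.32 from w1118 did not pass (adjusted p = 0.158).

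*SIFa*, made by a few large neurons of the pars intercerebralis and tied to sleep, feeding and courtship, was lowest in the rescue. It read 8.14, 8.24 and 8.40 in the rescue, 9.12, 9.22 and 9.15 in tbph Δ23 heads, 8.79, 8.71 and 8.89 in tbph Δ142 heads, and 8.88, 9.22 and 8.93 in w1118. The rescue arrays were under all others, and both mutants overlapped w1118. It fell in the rescue by 0.91 relative to tbph Δ23 (SE 0.10, limma adjusted p = 2.75e-05), by 0.54 relative to tbph Δ142 (adjusted p = 0.00153) and by 0.75 relative to w1118 (adjusted p = 7.79e-05). The mutants gave 0.15 and -0.21 against w1118 (adjusted p = 0.317 in tbph Δ23 and 0.147 in tbph Δ142).

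*Dh44*, a diuretic hormone of the corticotropin-releasing factor family, read 7.80, 7.91 and 8.01 in the rescue, 6.75, 7.11 and 6.74 in tbph Δ23 heads, 7.43, 7.28 and 7.18 in tbph Δ142 heads, and 7.54, 7.04 and 7.22 in w1118. The rescue arrays were the highest, and both mutants overlapped w1118. The rescue was 1.04 above tbph Δ23 (SE 0.14, limma adjusted p = 0.000131), 0.61 above tbph Δ142 (adjusted p = 0.00596) and 0.64 above w1118 (adjusted p = 0.00312), while tbph Δ23 gave -0.40 against w1118 (adjusted p = 0.0578). *Proc*, the precursor of proctolin, which stimulates muscle, read 6.84, 6.60 and 6.60 in the rescue, 6.11, 6.22 and 5.95 in tbph Δ23 heads, 5.73, 5.59 and 5.48 in tbph Δ142 heads, and 6.49, 6.20 and 5.74 in w1118. The w1118 arrays spread over 0.38 (SD, n = 3) and overlapped tbph Δ23, while the rescue was above all others. The rescue was 1.08 above tbph Δ142 (adjusted p = 0.000388) and 0.59 above tbph Δ23 (adjusted p = 0.015, lost without tbph Δ23 replicate 3, 0.51 to 0.65). *Proc* fell by 0.54 in tbph Δ142 (adjusted p = 0.0255), a call lost without tbph Δ142 replicate 2 or 3 or w1118 replicate 1 or 2 (-0.75 to -0.37).

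*Lk*, leucokinin, which raises fluid secretion by the Malpighian tubules, read 5.73, 5.86 and 5.74 in the rescue, 5.998, 6.03 and 5.70 in tbph Δ23 heads, 6.10, 5.87 and 5.88 in tbph Δ142 heads, and 5.52, 5.70 and 4.95 in w1118. The mutants were above w1118, but tbph Δ23 replicate 3 stood next to w1118 replicate 2, and w1118 replicate 3 was by far the lowest. It was 0.52 higher in tbph Δ23 (SE 0.16, limma adjusted p = 0.0418) and 0.56 higher in tbph Δ142 (adjusted p = 0.0252). Without w1118 replicate 3 both calls were lost (lowest values 0.30 and 0.34), the first was lost in 10 of 20 alternatives, and the second also without tbph Δ142 replicate 1.

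The other neuropeptides are given by their means over 3 arrays. *Pdf*, the output peptide of the clock neurons, averaged 8.49 in the rescue, 8.01 in tbph Δ23 heads, 7.98 in tbph Δ142 heads and 7.75 in w1118. It was higher in the rescue relative to tbph Δ142 (0.50, limma adjusted p = 0.0124), w1118 (0.74, adjusted p = 0.000787) and tbph Δ23 (0.48, adjusted p = 0.0147, a call lost without rescue replicate 3 or tbph Δ23 replicate 3, 0.37 to 0.59), and neither mutant passed against w1118 (0.26 in tbph Δ23 and 0.23 in tbph Δ142). *NPF*, neuropeptide F, a feeding and reward peptide related to vertebrate neuropeptide Y, averaged 8.14 in the rescue, 7.98 in tbph Δ23 heads, 7.59 in tbph Δ142 heads and 7.36 in w1118. It was 0.62 higher in tbph Δ23 than in w1118 (adjusted p = 0.000441), the value in tbph Δ142 was 0.24 (adjusted p = 0.0736), and the rescue was 0.55 above tbph Δ142 (adjusted p = 0.000779). *sNPF*, the short neuropeptide F precursor, had spreads between replicates that were wide in all groups but tbph Δ23 (8.58 ± 0.29 in the rescue, 8.29 ± 0.06 in tbph Δ23 heads, 8.41 ± 0.30 in tbph Δ142 heads and 7.98 ± 0.44 in w1118, SD, n = 3 each) and passed only in the rescue against w1118 (0.60, adjusted p = 0.046), which 9 of 20 alternatives lost, among them leaving out w1118 replicate 2 or rescue replicate 2 or 3 (0.35 to 0.73).

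*Dh31*, a diuretic and sleep-regulating peptide related to calcitonin, averaged 9.60 in the rescue, 9.29 in tbph Δ23 heads, 9.13 in tbph Δ142 heads and 8.84 in w1118. It was higher in tbph Δ23 than in w1118 (0.45, limma adjusted p = 0.016), a call lost without tbph Δ23 replicate 3 or w1118 replicate 2 (0.32 to 0.57). The rescue was above tbph Δ142 (0.47, adjusted p = 0.011). *Ms*, myosuppressin, which slows gut and heart muscle, averaged 11.16 in the rescue, 10.86 in tbph Δ23 heads, 10.79 in tbph Δ142 heads and 10.41 in w1118, and was 0.45 higher in tbph Δ23 (adjusted p = 0.00991) and 0.38 higher in tbph Δ142 (adjusted p = 0.0206) than in w1118. The call in tbph Δ142 was lost without tbph Δ142 replicate 1 or 2 or w1118 replicate 2 or 3 (0.32 to 0.46). The rescue was above tbph Δ142 in *Ms* by 0.36 (adjusted p = 0.0237), lost with array medians centred and without rescue replicate 2 or 3 or tbph Δ142 replicate 1 or 3 (0.28 to 0.47).

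*Capa*, the capability precursor, and *ITP*, the ion transport peptide, both act on water and ion balance. *Capa* averaged 7.97 in the rescue, 7.87 in tbph Δ23 heads, 7.90 in tbph Δ142 heads and 7.58 in w1118 and passed only in the rescue against w1118 (0.40, limma adjusted p = 0.041), lost in 9 of 20 alternatives, among them leaving out rescue replicate 1 or 3 or w1118 replicate 2 or 3 (0.28 to 0.51). *ITP* averaged 9.34 in the rescue, 9.42 in tbph Δ23 heads, 9.18 in tbph Δ142 heads and 9.22 in w1118, and no difference passed. *amn*, the memory gene amnesiac, stayed between 2.66 and 2.78 in its group means, and *CCHa1*, a peptide of gut and clock neurons, between 4.70 and 4.90, and neither passed a test.

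The neuropeptide-like precursors, named from peptide sequencing, went separate ways. *Nplp3* read 13.19, 12.98 and 12.98 in the rescue, 13.83, 13.83 and 13.94 in tbph Δ23 heads, 13.80, 13.71 and 13.79 in tbph Δ142 heads, and 13.95, 13.99 and 13.99 in w1118. The rescue arrays were under all others. It fell in the rescue by 0.81 relative to tbph Δ23 (SE 0.07, limma adjusted p = 4.25e-06), by 0.72 relative to tbph Δ142 (adjusted p = 1.75e-05) and by 0.93 relative to w1118 (adjusted p = 8.52e-07). Its difference of -0.21 between tbph Δ142 and w1118 (adjusted p = 0.0439) was lost in 12 of 20 alternatives, among them leaving out any array of tbph Δ142 or w1118 (-0.23 to -0.06).

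*Nplp2* read 13.85, 13.85 and 13.91 in the rescue, 13.30, 13.24 and 13.38 in tbph Δ23 heads, 13.48, 13.42 and 13.52 in tbph Δ142 heads, and 13.48, 13.12 and 13.54 in w1118. Here the rescue arrays were above all others, and both mutants overlapped w1118. The rescue was 0.57 above tbph Δ23 (SE 0.10, limma adjusted p = 0.000939), 0.40 above tbph Δ142 (adjusted p = 0.00962) and 0.49 above w1118 (adjusted p = 0.00186). *Nplp1*, a precursor made by a set of neurosecretory neurons of the nerve cord and by brain cells, averaged 8.43 in the rescue, 8.23 in tbph Δ23 heads, 7.88 in tbph Δ142 heads and 8.09 in w1118, and the rescue was above tbph Δ142 (0.55, adjusted p = 0.000794). *Nplp4* averaged 6.75 in the rescue, 6.17 in tbph Δ23 heads, 6.51 in tbph Δ142 heads and 6.58 in w1118. It fell by 0.42 in tbph Δ23 relative to w1118 (adjusted p = 0.042, lost in 8 of 20 alternatives, among them leaving out tbph Δ23 replicate 1 or 2 or w1118 replicate 1 or 3, -0.49 to -0.33), and the rescue was 0.59 above tbph Δ23 (adjusted p = 0.0051). *Gpb5*, a glycoprotein hormone subunit related to vertebrate thyrostimulin, averaged 5.76 in the rescue, 5.96 in tbph Δ23 heads, 6.08 in tbph Δ142 heads and 5.61 in w1118. It was 0.35 higher in tbph Δ23 (adjusted p = 0.0319) and 0.48 higher in tbph Δ142 (adjusted p = 0.0056) than in w1118. The call in tbph Δ23 was lost in a fit of the compared groups only and without tbph Δ23 replicate 1 or 2 or w1118 replicate 3 (0.25 to 0.42), and the rescue's value against tbph Δ142 (-0.32, adjusted p = 0.0398) was lost in 7 of 20 alternatives, among them leaving out any rescue array (-0.39 to -0.25).

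Some general neuron markers were also higher in the mutants. The mean of the 7 markers was 7.94 to 8.06 in the rescue, 8.05 to 8.10 in tbph Δ23 heads, 7.87 to 8.02 in tbph Δ142 heads and 7.80 in every w1118 array. Of them 3 were higher and none lower in tbph Δ23 than in w1118, 3 were higher and 1 lower in tbph Δ142, and 5 were higher and 1 lower in the rescue. Against the mutants, the rescue had 1 lower than tbph Δ23 and 1 higher than tbph Δ142. *elav*, a general neuron marker and the source of the driver's promoter, was 0.36 higher in tbph Δ23 (limma adjusted p = 0.00747), 0.31 higher in tbph Δ142 (adjusted p = 0.0165) and 0.30 higher in the rescue (adjusted p = 0.0139). The 5 glia markers had a mean of 9.33 to 9.38 in the rescue, 9.33 to 9.43 in tbph Δ23 heads, 9.23 to 9.31 in tbph Δ142 heads and 9.51 to 9.61 in w1118, with 3 lower in each mutant than in w1118 and 2 lower in the rescue than in w1118. Against tbph Δ23 the rescue had 2 glia markers higher and 2 lower, and against tbph Δ142 2 higher and 1 lower. The part of these lists in the values of the brain neuropeptides was not tested.

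In the rescue 17 of the 33 peptide genes passed against tbph Δ23, 10 higher and 7 lower, where 29.5% of all genes passed. Against tbph Δ142 20 passed, 12 higher and 8 lower, where 27.5% of all genes passed. Of all genes, 14.3% were higher and 15.1% lower against tbph Δ23, and 14.3% were higher and 13.2% lower against tbph Δ142. The median difference was 0.15 against tbph Δ23 and 0.16 against tbph Δ142, beside 0.01 over all genes in both. Both comparisons use the same rescue arrays. The 3 rescue arrays lay outside all 6 mutant arrays for 20 peptide genes, 12 above and 8 below, where 29.5% of all genes did so (14.9% above and 14.6% below).

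**Figure D4:**
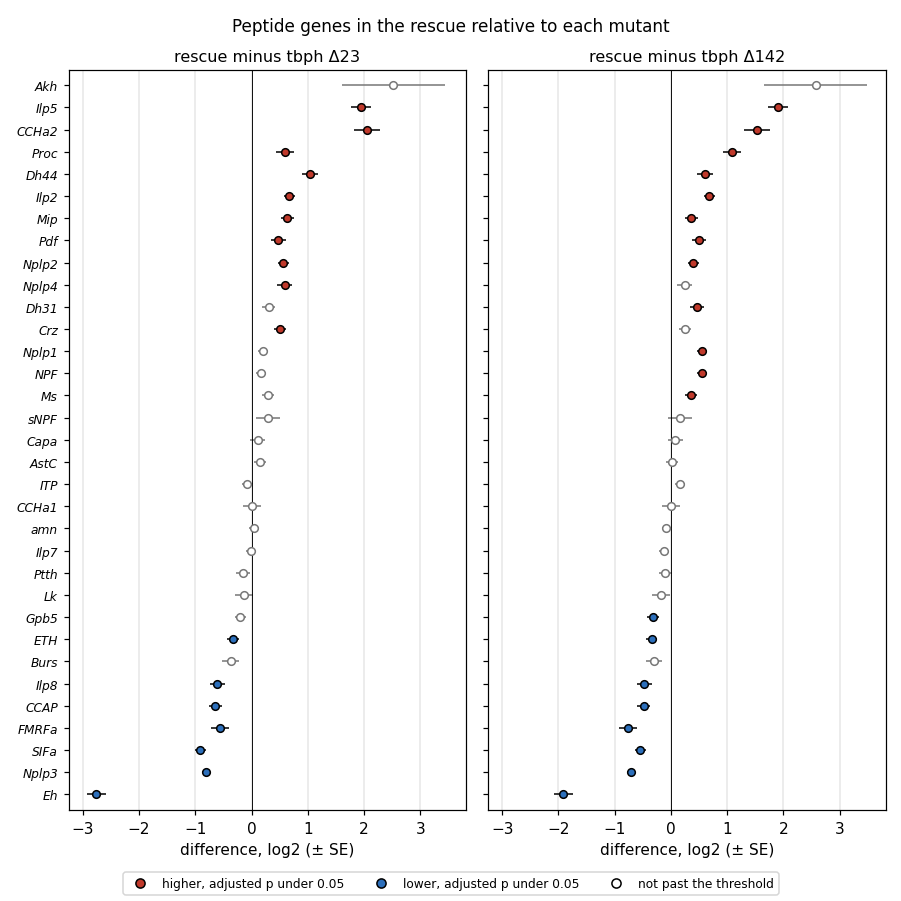
Difference in log2 intensity of the rescue (horizontal axis, bars ± standard error) from tbph Δ23 and from tbph Δ142 for each peptide gene (rows), with 3 arrays per group. *Ilp5* and *CCHa2* have the highest filled points (1.54 to 2.05) and *Eh* the lowest (-2.76 and -1.92); *Akh* is open, with a standard error of 0.92.

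Against w1118, 24 peptide genes passed in the rescue, 17 higher and 7 lower, where 35.0% of all genes passed (16.9% higher and 18.0% lower). The median difference was 0.39, beside 0.01 over all genes. The rescue arrays lay outside the w1118 arrays for 23 peptide genes, 17 above and 6 below, where 45.9% of all genes did so (22.9% above and 23.0% below). *Akh* was furthest above w1118 (2.66), a call lost in 12 of 20 alternatives. *Mip*, *Ilp2*, *AstC* and *Crz* were 0.96 to 1.33 above w1118, and *Eh*, *CCAP* and *Nplp3* were 0.93 or more under it. *FMRFa* (0.32), *Lk* (0.39), *Gpb5* (0.16), *Nplp4* (0.17), *ITP* (0.12) and *CCHa1* (0.21) did not pass. The call of *Nplp1* (0.34, limma adjusted p = 0.0123) was lost without rescue replicate 3 (0.28 to 0.41). That of *Proc* (0.54, adjusted p = 0.0204) was lost without rescue replicate 1 or w1118 replicate 3, with array weights and in a fit of the compared groups only (0.34 to 0.71). That of *Ilp8* (-0.37, adjusted p = 0.0487) was lost in 13 of 20 alternatives, among them leaving out rescue replicate 1 or 3 or w1118 replicate 1 or 2 (-0.47 to -0.29).

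Between tbph Δ142 and tbph Δ23, 2 peptide genes passed, where 3.49% of all genes did so (1.42% higher and 2.07% lower). *Eh* differed by -0.84 (SE 0.17, limma adjusted p = 0.0211) and *NPF* by -0.39 (SE 0.09, adjusted p = 0.0378), both lower in tbph Δ142. The 3 arrays of the alleles did not overlap in either gene. In *NPF* they read 7.67, 7.58 and 7.53 in tbph Δ142, against 7.94, 8.06 and 7.94 in tbph Δ23. The call of *Eh* was lost without tbph Δ142 replicate 2 or 3 or tbph Δ23 replicate 1 or 3 (-0.92 to -0.70), and that of *NPF* with array medians centred or quantiles equalised again, and without any array of either allele or w1118 replicate 3 (-0.43 to -0.35).

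Within groups, the peptide genes tended to deviate together from array to array. Over the 253 pairs of the 23 genes above the range of genes not expected in heads, the median correlation of the deviations from the group means was 0.35 (rank correlation 0.36), and 187 pairs were above 0. Each pair rests on 12 arrays from which the group means were removed, with shared RNA and normalization within an array, so the pairs are not independent. The same correlation was not computed for other genes, so whether it is particular to peptide genes was not tested. In w1118, 20 of the 23 genes were above their group mean on replicate 1 and 5 on replicate 2, while 43.9% and 57.2% of all genes were. In tbph Δ23, 20 were above it on replicate 2 and 6 on replicate 3, while 52.0% and 47.5% of all genes were. In the rescue 17 were above it on replicate 3 and 7 on replicate 1, while 56.0% and 44.3% of all genes were. In tbph Δ142, 19 were above it on replicate 1 and 9 on replicate 3, while 51.2% and 55.7% of all genes were. From one named array to the other, the all-gene shares thus ran the same way as the peptide genes in the rescue and in tbph Δ23. They ran the other way in w1118 and in tbph Δ142. On tbph Δ142 replicate 2, 10 of the 23 genes and 44.0% of all genes were above their group mean. *Ilp2* and *Ilp5*, which share the insulin-producing cells, had a correlation of 0.77 (rank correlation 0.81), and *Crz* and *Ms* of 0.93. This value is not particular to the insulin genes. *Ilp2* correlated more strongly with *Crz* (0.90, rank correlation 0.93) and with *Mip* (0.80, rank correlation 0.84) than with *Ilp5*.

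Of 25 measured genes for peptide receptors, 6 had a higher level in tbph Δ23 than in w1118 and 1 a lower level, and 1 was higher and 1 lower in tbph Δ142. The rescue had 1 higher and 5 lower than tbph Δ23, and 5 higher and 5 lower than tbph Δ142. In all 7 of the 25 passed in tbph Δ23 and 2 of the 25 in tbph Δ142, where 21.3% and 25.0% of all genes passed. In the rescue the receptors passed at 24.0% against tbph Δ23 and 40.0% against tbph Δ142, where 29.5% and 27.5% of all genes passed. In all 4 groups *TkR86C*, *AstC-R1*, *CCAP-R*, *Lgr3*, *Lgr4* and *PK1-R* had means within the range of genes not expected in heads. The same held for *Proc-R*, *rk*, *CCHa1-R*, *CCHa2-R* and *TrissinR*, and *tor* lay under that range. The receptor shares thus include many genes whose differences can be understated. *InR*, the insulin receptor, averaged 7.64 in the rescue, 8.16 in tbph Δ23 heads, 8.37 in tbph Δ142 heads and 7.48 in w1118, and was higher in tbph Δ23 (0.68, limma adjusted p = 0.0285) and in tbph Δ142 (0.89, adjusted p = 0.00587) than in w1118. In the rescue *InR* was under tbph Δ142 (-0.73, adjusted p = 0.0167). Its differences from tbph Δ23 (-0.52, adjusted p = 0.0698) and from w1118 (0.16, adjusted p = 0.569) did not pass. *AkhR*, the receptor of adipokinetic hormone on fat body cells, averaged 6.12 in the rescue, 4.97 in tbph Δ23 heads, 5.29 in tbph Δ142 heads and 5.81 in w1118. It fell by 0.84 in tbph Δ23 (adjusted p = 0.00372) and by 0.52 in tbph Δ142 (adjusted p = 0.0389), and the rescue was 1.15 above tbph Δ23 (adjusted p = 0.000279) and 0.83 above tbph Δ142 (adjusted p = 0.00306). The fat body markers given above moved in the rescue too, and their part in the level of *AkhR* was not tested. The cholecystokinin-like receptor *CCKLR-17D3* was lower in the rescue relative to tbph Δ23 (-0.51, adjusted p = 0.000106) and tbph Δ142 (-0.34, adjusted p = 0.00214). *TkR99D*, a tachykinin receptor, was higher in tbph Δ23 than in w1118 (0.33, adjusted p = 0.0271). *PK1-R*, a pyrokinin receptor, was also higher there (0.44, adjusted p = 0.0292) but gave -0.15 in tbph Δ142 (adjusted p = 0.442). Between tbph Δ142 and tbph Δ23 it differed by -0.60 (adjusted p = 0.0278). Its group means, 3.77 to 4.36, lay within the range of genes not expected in heads.

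Of 14 measured genes for precursor processing and dense-core vesicle release, 4 rose and none fell in tbph Δ23, and 3 rose and 1 fell in tbph Δ142, each against w1118. The rescue had 2 higher and 1 lower than tbph Δ23, and 3 higher and none lower than tbph Δ142. This was 28.6% in either mutant, near the 21.3% and 25.0% of all genes, and 21.4% in the rescue against either mutant, under the 29.5% and 27.5% of all genes. *7B2*, which helps the prohormone convertase amontillado to mature, averaged 12.23 in the rescue, 11.73 in tbph Δ23 heads, 11.59 in tbph Δ142 heads and 11.36 in w1118. It was higher in tbph Δ23 (0.37, limma adjusted p = 0.00221) and tbph Δ142 (0.23, adjusted p = 0.0247) than in w1118, and in the rescue relative to tbph Δ23 (0.50, adjusted p = 0.000178) and tbph Δ142 (0.63, adjusted p = 3.88e-05). *Cadps*, which primes dense-core vesicles, was higher in tbph Δ23 (0.42, adjusted p = 0.0153) and tbph Δ142 (0.44, adjusted p = 0.0104), as was the amidating enzyme *Phm* (0.26 and 0.22, adjusted p = 0.016 and 0.0292). *Pal2*, which completes amidation, was higher in the rescue relative to tbph Δ23 (0.28, adjusted p = 0.0207) and tbph Δ142 (0.37, adjusted p = 0.00455). *Sytalpha*, a synaptotagmin, was higher in tbph Δ23 than in w1118 (0.47, adjusted p = 0.00576) and gave -0.01 in tbph Δ142. The convertase *Fur2* fell by 0.27 in tbph Δ142 (adjusted p = 0.0255).

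Among 9 measured genes for peptide breakdown and insulin binding, 2 rose and 1 fell in tbph Δ23, and 3 rose and 1 fell in tbph Δ142, each against w1118. The rescue had 2 higher and 2 lower than tbph Δ23, and 1 higher and 2 lower than tbph Δ142. These counts are 33.3% in tbph Δ23, 44.4% in tbph Δ142, and for the rescue 44.4% against tbph Δ23 and 33.3% against tbph Δ142, beside the all-gene shares given for the receptors. *Ance*, an angiotensin-converting enzyme homologue, averaged 8.55 in the rescue, 9.36 in tbph Δ23 heads, 9.38 in tbph Δ142 heads and 8.40 in w1118. It was higher in tbph Δ23 (0.95, limma adjusted p = 0.000818) and tbph Δ142 (0.97, adjusted p = 0.000528) than in w1118, and lower in the rescue relative to tbph Δ23 (-0.80, adjusted p = 0.00154) and tbph Δ142 (-0.82, adjusted p = 0.00161). *Sdr*, a secreted decoy that binds insulin-like peptides, was higher than in w1118 by 0.66 in tbph Δ23 (adjusted p = 9.29e-05), 0.58 in tbph Δ142 (adjusted p = 0.000163) and 0.57 in the rescue (adjusted p = 9.41e-05). The neprilysin *Nep1* was lower in the rescue relative to tbph Δ23 (-0.84, adjusted p = 0.000204) and tbph Δ142 (-1.01, adjusted p = 6.78e-05), while *Nep2* was higher there (0.31 and 0.54, adjusted p = 0.0272 and 0.00111).

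Of 6 transcription factor genes that specify peptidergic cells, 1 was higher and 1 lower in tbph Δ23, none passed in tbph Δ142 against w1118, and 1 was higher in the rescue than in each mutant. *ap*, apterous, was that gene (0.39 above tbph Δ23, limma adjusted p = 0.00949, and 0.49 above tbph Δ142, adjusted p = 0.00272), and *eya* fell by 0.38 in tbph Δ23 (adjusted p = 0.0451). *dimm*, which drives the neurosecretory fate, averaged 2.95 to 3.07 and passed no test. These means lie within the range of genes not expected in heads, so they do not show that *dimm* was unchanged. Of 9 further peptide genes outside the list of 40, 3 (33.3%) were higher in each mutant than in w1118. The rescue had 4 (44.4%) higher than tbph Δ23 and 3 (33.3%) higher than tbph Δ142, and none was lower in these comparisons. The all-gene shares are those given for the receptors. The 3 that were higher in each mutant were *Trissin* (0.64 in tbph Δ23 and 0.74 in tbph Δ142), *Orcokinin* (0.65 and 0.71) and *Gbp2*, a growth-blocking peptide gene (0.52 and 0.86). *Orcokinin* averaged 8.83 in the rescue, 8.30 in tbph Δ23 heads, 8.35 in tbph Δ142 heads and 7.64 in w1118, so that the rescue was 1.19 above w1118 (adjusted p = 2.59e-05). Against w1118 the rescue had 5 of the 9 higher and 1 lower, *AstCC* (-0.67, limma adjusted p = 0.0102). This was 66.7%, where 35.0% of all genes passed. In all 4 groups *AstCC*, *CNMa*, *natalisin*, *SP* and *Dup99B* had means within the range of genes not expected in heads.

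**Figure D5:**
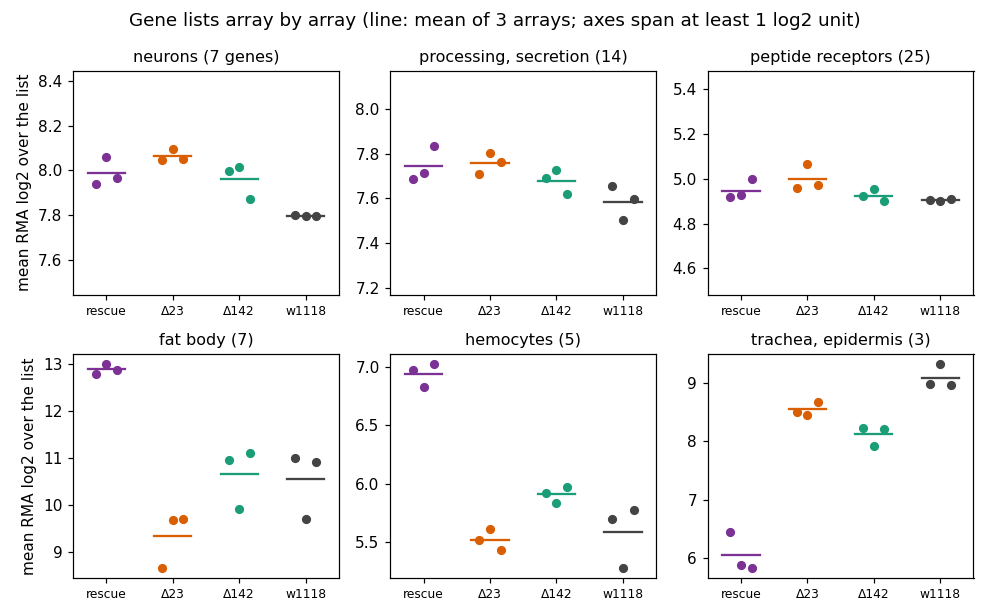
Mean RMA log2 intensity over each list of genes (vertical axis) on each array of the rescue, tbph Δ23, tbph Δ142 and w1118, with a line at the mean of 3 arrays. The neuron list is lowest in w1118 (7.80), the fat body list highest in the rescue (12.80 to 13.00), and the list for trachea and epidermis lowest in the rescue (5.84 to 6.45).

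Of the 4 muscle markers, whose means are given beside *Akh*, 1 was higher in each mutant than in w1118, and 2 were lower in the rescue than in each mutant. Against w1118 the rescue had 1 higher and 2 lower. Of the 4 photoreceptor markers, *trp* was higher in both mutants than in w1118 and lower in the rescue than in both mutants, and *Arr1* was higher in the rescue than in w1118. Of the 14 genes not expected in heads, *Cp19* was lower in the rescue and in both mutants than in w1118, and a different gene passed in each comparison of the rescue as higher, *Mst98Cb* against tbph Δ23, *Mst87F* against tbph Δ142 and *Mst98Ca* against w1118. For 13 of the 33 measured peptide genes the RefSeq span overlaps that of another gene. They are *Ilp2*, *Ilp5*, *Ilp7*, *Ilp8*, *Lk*, *CCAP*, *Dh44*, *Dh31*, *SIFa*, *ITP*, *ETH*, *amn* and *Ptth*. No source used here gives the strand or position of the probes, so signal from the neighbour is not separated in these genes.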

How the data were processed

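The authors made log2 intensities from the CEL files by RMA, with background correction, quantile normalization and summarization per probe set, and these deposited log2 values were used as they stand. The build behind the probe sets and the version of RMA are not given in the sources used here. Probe sets with 1 gene in the platform annotation (13647) were named by their present RefSeq symbol (13544) or, where the gene was not found there, by the annotated symbol (103), and collapsed by the median to 11982 genes.

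limma 3.58.1 in R 4.3.3 fitted the 4 group means to every gene together, with moderated variances. Two-sided p-values were adjusted by Benjamini and Hochberg across all genes, comparison by comparison, and 0.05 was the threshold. The arrays are the labels' biological replicates. The limma fit was tested on simulated data for the comparison of tbph Δ23 with w1118. The peptide genes and the lists (receptors, processing and secretion, breakdown and insulin binding, cell regulators, further peptide genes, cell type markers, genes not expected in heads) were chosen with earlier results of these data known.

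A peptide gene past the threshold with the same sign in both mutant comparisons, or in both comparisons of the rescue with a mutant, is given array by array, up to 16 genes by the largest difference. From other lists up to 4 genes by their mean change over each of these pairs were eligible to be named. *Akh* and *dimm* were added after their values were seen. Alternatives covered the scaling, the model, the genes kept and each array left out. The replicate numbers did not pair the arrays across groups. No sequence is shown, since no sequence table was used here.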

Additional observations from a re-analysis of the deposited data

Results flagged for a closer look

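The difference between the mutant alleles was itself tested and passed the threshold for 2 peptide genes. *Eh* differed by -0.84 between tbph Δ142 and tbph Δ23, where it averaged 6.22 ± 0.25 in tbph Δ142 and 7.06 ± 0.15 in tbph Δ23 (SD, n = 3 each). *NPF* differed by -0.39, where it averaged 7.59 ± 0.07 in tbph Δ142 and 7.98 ± 0.07 in tbph Δ23. Groups of 3 arrays are too small for a test of single outlying arrays, so none was run.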

How the results depend on the processing

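The peptide genes gave 91 calls over the 6 comparisons, and each was checked under 20 alternatives, or 19 for the calls of *Burs* and *ETH*, which are not tested once the lowest 25% of genes are left out. Of these calls 62 held under every alternative, 29 were lost under 1 or more, and 0 reversed in sign. The number of peptide genes changed stayed within 1.5 times its value in every comparison but that of tbph Δ142 with tbph Δ23, where 2 became 1 with array medians centred, 4 with array weights, 6 in a fit of the compared groups only and 1 with quantiles equalised again; the cause was not tested. Leaving out each array in turn gave 0 to 4 genes there. It gave 10 to 15 in tbph Δ23 against w1118, 10 to 16 in tbph Δ142 against w1118, 15 to 19 in the rescue against tbph Δ23, 15 to 20 in the rescue against tbph Δ142 and 18 to 23 in the rescue against w1118. With array medians centred, tbph Δ142 against w1118 gave 12.

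Arrays with the same replicate number had residuals that correlated at -0.212 to 0.0914 over 18 pairs, 0 of them over 0.1, and 3 of 12 arrays were closest to their own number. The samples share only a number. With the replicate number as a block the counts were 13, 14, 17, 20 and 23 in the comparisons of tbph Δ23 with w1118, tbph Δ142 with w1118, and the rescue with tbph Δ23, tbph Δ142 and w1118, and 0 between the alleles, where the calls of *Eh* and *NPF* were lost.

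The background correction could not be varied, since the CEL files were not used here. Taking the brightest probe set per gene leaves the peptide genes as they are. A count of genes past the threshold in both mutants is not given, because both comparisons use the same w1118 arrays. With 3 arrays per group, small differences were not detectable, and genes within the range of those not expected in heads have compressed differences.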
